A study of Mus musculus with 6 samples.

Results

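The Myc and ribosome biogenesis genes are 41 transcripts: Myc, its relative Mycn and its partner Max, together with 38 genes of RNA polymerase I, nucleolar processing and ribosome assembly. They were taken by gene symbol from the count table of 55536 genes, and all 41 were found and had enough counts to be tested. Thymocytes, which are T cells still developing in the thymus, were taken in steady state from mice labelled Il3ra-/-, deficient in the alpha chain of the interleukin-3 receptor, and from wildtype Il3ra+/+ mice, with 3 libraries from 3 mice in each group. The labels name no treatment for either group, and age, strain and sex are not given in them. Levels are CPM (read counts scaled to a common library size) on library sizes scaled by the trimmed mean of M values (TMM), given per library or as mean ± SD, and a fold is the labelled Il3ra-/- group over the Il3ra+/+ group.

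Myc is a transcription factor that pairs with Max and binds E-box motifs, and it is known as a driver of cell growth. Among its best known targets are the genes that make ribosomes. In the nucleolus, RNA polymerase I copies the ribosomal DNA, small nucleolar ribonucleoproteins (snoRNPs) modify the transcript, and separate sets of factors cut and fold it into the small and the large ribosomal subunit. In the thymus, Myc is known for its part in the growth of early thymocytes after the beta chain of the antigen receptor has been selected.

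Total counts were 59135254 to 82684219 in the libraries labelled Il3ra-/- and 55747682 to 66534218 in the Il3ra+/+ libraries. Il3ra itself was not lower in the libraries labelled Il3ra-/- (481, 673 and 514 counts, against 465, 376 and 399 counts in the Il3ra+/+ libraries; fold 1.14; adjusted p = 0.585 by the quasi-likelihood test of edgeR). Counts over the whole gene cannot show whether a part of it was deleted, so the genotypes are used as labelled. Replicate 1 of each genotype carried Xist, the RNA of the inactive X chromosome, at 2118 CPM in the labelled Il3ra-/- library and 1477 CPM in the Il3ra+/+ library, against at most 0.873 CPM in the other 4 libraries. Ddx3y, a gene of the Y chromosome, had 3 and 1 counts in these 2 libraries, against 6476 to 11226 counts in the other 4. Values without these 2 libraries, and from this pair alone, are given where a call changes and for the members in which they lie farthest apart. The 13 thymocyte markers, of which Tcf7 was the most abundant, were present in all libraries and summed to 14487 to 15234 CPM in the labelled Il3ra-/- group and 15950 to 17719 CPM in the Il3ra+/+ group, without overlap.

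Most members had slightly higher transcript levels in the libraries labelled Il3ra-/-, and none passed the test over all genes. Of the 41 members, 34 were fitted higher and 7 lower, with a median log2 fold of 0.15, beside 51.2% fitted higher and a median log2 fold of 0.01 over all 18690 tested genes. With edgeR's quasi-likelihood test and Benjamini-Hochberg adjustment over all genes, 0 members were called, where the whole table had 17 calls or 0.0910%. At an unadjusted p under 0.05, 12 members were higher, against 8.01% of all genes, and 0 were lower, against 6.60% of all genes. In 18 members, or 43.9%, all 3 labelled Il3ra-/- libraries lay above all 3 Il3ra+/+ libraries, against 10.9% of all genes. In 0 members did they all lie below, against 9.38% of all genes. In these shares, here and below, all genes were not matched to the members for abundance or for spread between libraries. By DESeq2, 3 members (Myc, Nop58 and Rrs1) were called higher, against 2.95% of all genes, and by limma-voom 0 were called. Without the Xist-high library of both genotypes, edgeR called Mycn and Rrs1 higher, against 2.06% of all genes. In that fit 32 members were fitted higher with a median log2 fold of 0.17, and in the Xist-high pair alone 33 of 41 members were higher in the labelled Il3ra-/- library, with a median fold of 1.10.

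**Figure D1:**
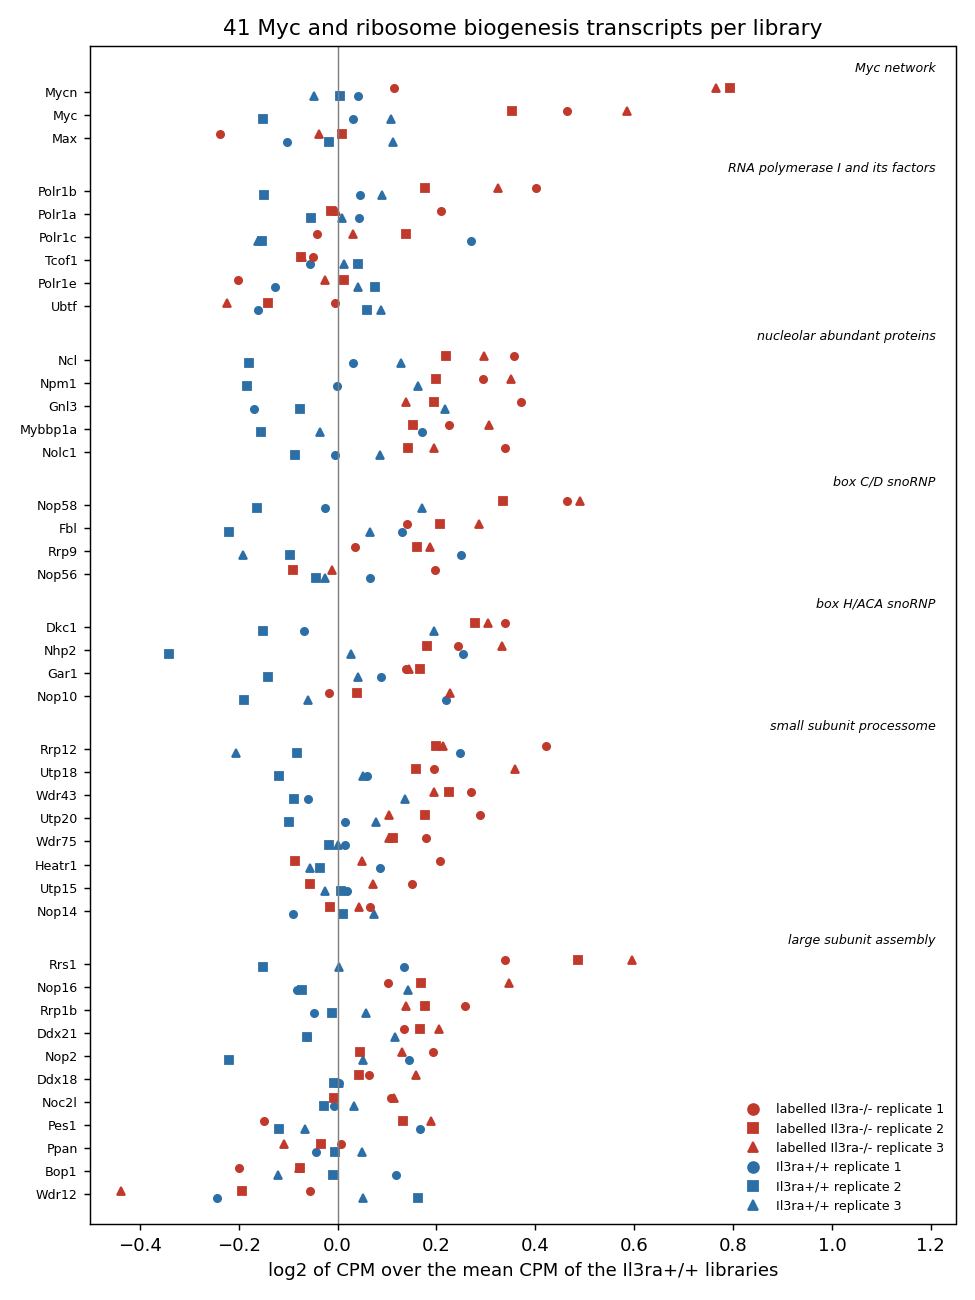
Each row is 1 of the 41 transcripts, and each point is 1 library, drawn as the log2 of its CPM over the mean CPM of the Il3ra+/+ libraries (vertical line). Labelled Il3ra-/- libraries are red and Il3ra+/+ libraries blue, with marker shape for the replicate; in 18 rows all red points lie to the right of all blue points, and in no row do they all lie to the left.

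The folds were small and the libraries of a genotype close to each other. Fitted folds of members ran between 0.858 for Wdr12 and 1.51 for Mycn, and adjusted p-values lay between 0.139 and 0.909 by edgeR. The 95% interval of the fold included 1 in 29 of the 41 members. The median biological coefficient of variation of the members was 10.9%, beside 16.3% over all tested genes, which were not matched to the members for abundance. The lowest count of any member in a library was 169, in Mycn, where counting error is a part of the spread between libraries.

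**Figure D2:**
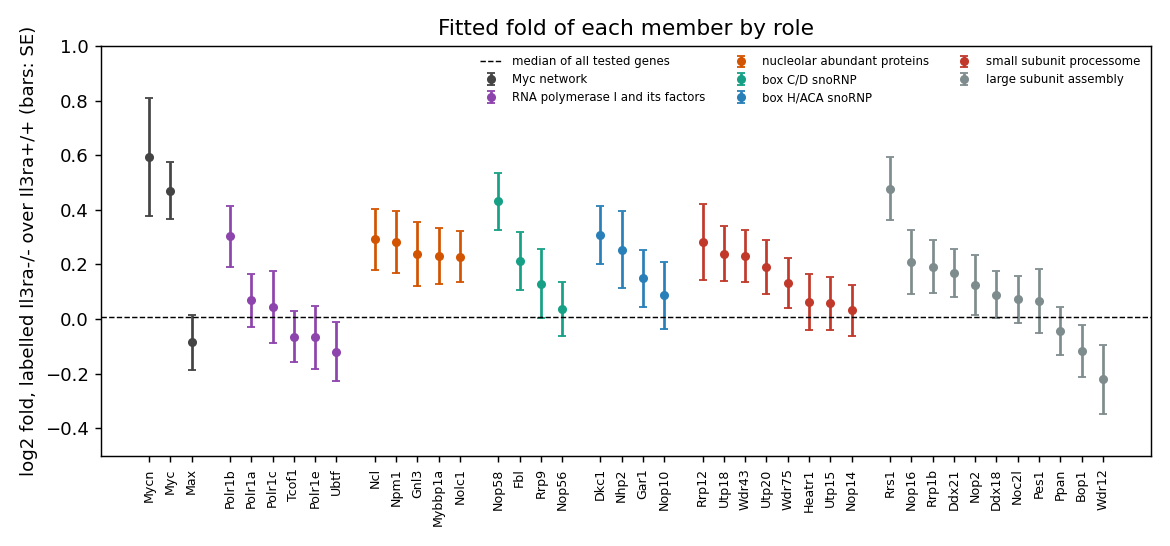
Points are the fitted log2 folds of the 41 members, labelled Il3ra-/- over Il3ra+/+, with bars of 1 standard error, grouped and coloured by role. The dashed line at 0.01 is the median of all tested genes; the nucleolar, snoRNP and small subunit groups lie above it in every member, and the polymerase I and large subunit groups lie on both sides.

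Myc had the smallest p of the set. Myc (chromosome 15, 61985391 to 61990374, GRCm38) had 85, 78.7 and 92.4 CPM in labelled Il3ra-/- replicates 1 to 3, against 62.9, 55.5 and 66.4 CPM in Il3ra+/+ replicates 1 to 3. The genotypes did not overlap, and the lowest labelled Il3ra-/- library stood above the highest Il3ra+/+ library. The fold was 1.39 (95% interval 1.18 to 1.62), with an adjusted p of 0.139 by edgeR's quasi-likelihood test and 0.00856 by DESeq2. The fold was 1.35 in the Xist-high pair and 1.40 in the other 4 libraries (edgeR, adjusted p = 0.0508). Over all alternatives the log2 fold of Myc lay between 0.40 and 0.53 and its edgeR adjusted p between 0.00284, without the low-count filter, and 0.634, without Il3ra+/+ replicate 2.

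Mycn, another Myc protein with the same partner, was scarce. It had 3.16, 5.05 and 4.96 CPM in labelled Il3ra-/- replicates 1 to 3, against 3.00, 2.92 and 2.82 CPM in the Il3ra+/+ libraries. The groups did not overlap, but labelled Il3ra-/- replicate 1 lay close to the Il3ra+/+ libraries, and only replicates 2 and 3 stood well above them. The fold was 1.51 (95% interval 1.08 to 2.09; edgeR, adjusted p = 0.254), 1.05 in the Xist-high pair, and 1.74 without that pair (edgeR, adjusted p = 0.0496). The same replicate 1 was also the lowest of the labelled Il3ra-/- libraries in the 10 markers of double-negative thymocytes, the earliest thymocytes, which summed to 106, 138 and 147 CPM in labelled Il3ra-/- replicates 1 to 3 and to 90.4, 96.8 and 110 CPM in the Il3ra+/+ libraries. The part of these cells in the Mycn values was not tested, and in bulk RNA more cells of a type and more RNA per cell cannot be told apart.

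Max, the shared partner, did not differ detectably. It had 77.6, 92.0 and 89.2 CPM in the libraries labelled Il3ra-/- and 85.2, 90.3 and 98.9 CPM in the Il3ra+/+ libraries, which overlapped. The fold was 0.943 with a 95% interval of 0.809 to 1.10 (edgeR, adjusted p = 0.735).

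**Figure D3:**
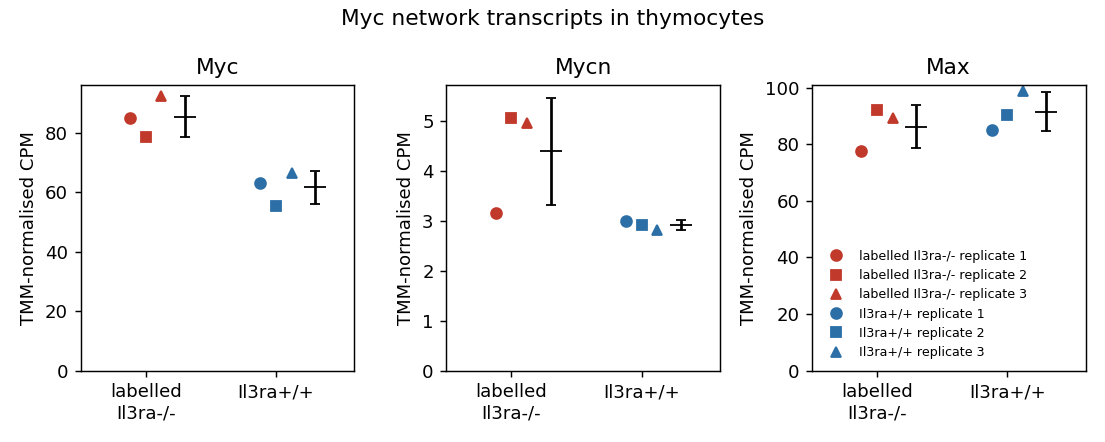
CPM of Myc, Mycn and Max in each library, with the labelled Il3ra-/- group left and the Il3ra+/+ group right in each panel; black bars are the mean and SD of 3 libraries. Myc does not overlap between the groups, Mycn is separated mainly by replicates 2 and 3 of the labelled Il3ra-/- group, and Max overlaps.

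Other genes of the wider Myc and Max network were mostly fitted lower. Of 9 tested genes among 10 listed, 2 were fitted higher and 7 lower, with a median log2 fold of -0.18. By edgeR's test over all genes 0 passed, and DESeq2 called 1 lower, beside 202 of 13267 genes. At an unadjusted p under 0.05, 1 was higher, beside 8.01% of all genes, and 4 were lower, beside 6.60% of all genes. Mxd4, a Max partner that represses E-box genes, had 216, 248 and 229 CPM in the libraries labelled Il3ra-/- and 274, 329 and 294 CPM in the Il3ra+/+ libraries, with no overlap. Its fold was 0.773 (edgeR, adjusted p = 0.177; DESeq2, adjusted p = 0.0320). Mlxip and Mlx, a dimer that responds to sugar phosphates, had folds of 0.795 and 0.846 (edgeR, adjusted p = 0.246 and 0.286). For Mlxip the fold was 0.998 in the Xist-high pair and 0.713 in the other 4 libraries. In those 4 it was called lower (edgeR, adjusted p = 0.0450), beside 368 of 19127 genes. For Mlx the fold was 0.737 in the pair and 0.905 in the others.

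Genes of RNA polymerase I and its factors split evenly, with 3 of 6 fitted higher and a median log2 fold of -0.01. Polr1b, the second largest catalytic subunit, stood out. It had 26.2, 22.5 and 24.9 CPM in the libraries labelled Il3ra-/-, against 20.5, 17.9 and 21.2 CPM in the Il3ra+/+ libraries. The groups did not overlap, and the fold was 1.23 (95% interval 1.04 to 1.46; edgeR, adjusted p = 0.257). Polr1a, the largest subunit, and Polr1c, a subunit shared with polymerase III, had folds of 1.05 and 1.03, and Polr1e had 0.955. The fitted direction of Polr1a and Polr1c turned when single libraries were left out, and the fold of Polr1c was 0.806 in the Xist-high pair and 1.18 in the other 4 libraries. Ubtf, which binds the ribosomal DNA and opens it for polymerase I, averaged 259 ± 19.9 CPM in the labelled Il3ra-/- group and 281 ± 25.7 CPM in the Il3ra+/+ group (SD, n = 3 each; fold 0.920), with a fold of 1.11 in the Xist-high pair and 0.838 in the others. Tcof1, a nucleolar factor known from Treacher Collins syndrome, averaged 320 ± 2.90 CPM in the labelled Il3ra-/- group and 334 ± 11.6 CPM in the Il3ra+/+ group (fold 0.956). Adjusted p-values of these 5 were 0.648 to 0.906 by edgeR. Among 10 further polymerase I genes, 6 were fitted higher and 0 passed by edgeR or DESeq2. Of these 10, 1 was higher and 1 lower at an unadjusted p under 0.05, beside 8.01% and 6.60% of all genes. Cd3eap, a subunit of the enzyme, had a fold of 1.35 and Taf1c, part of its promoter factor SL1, a fold of 0.833 (edgeR, adjusted p = 0.228 and 0.282), and Twistnb, another subunit, had 1.12.

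The abundant nucleolar proteins were fitted higher in all 5 members, with folds between 1.17 and 1.22. Ncl (nucleolin), which binds the nascent ribosomal RNA, had 849, 772 and 813 CPM in the libraries labelled Il3ra-/- and 677, 585 and 725 CPM in the Il3ra+/+ libraries. Npm1 (nucleophosmin), a nucleolar chaperone, had 574, 538 and 597 CPM in the labelled Il3ra-/- group, against 468, 413 and 525 CPM in the Il3ra+/+ group. In both genes the groups did not overlap, with folds of 1.22 for each (95% intervals 1.03 to 1.45 and 1.02 to 1.45; edgeR, adjusted p = 0.271 and 0.290). Nolc1, a chaperone of snoRNPs, averaged 104 ± 7.41 CPM in the labelled Il3ra-/- group and 89.2 ± 5.31 CPM in the Il3ra+/+ group, again without overlap (fold 1.17; edgeR, adjusted p = 0.295). Gnl3, the GTPase nucleostemin, and Mybbp1a, a nucleolar Myb-binding protein, overlapped between the groups (folds 1.18 and 1.17). For Gnl3 the fold was 1.46 in the Xist-high pair and 1.06 in the other 4 libraries. Npm1 has 4 processed pseudogenes of at least 95% identity over at least 200 bases, whose counts equal 0.245% to 9.06% of its own, so its counts may be shared with them.

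Box C/D snoRNPs are known for methylating the ribosomal RNA, and the 4 members that belong to particles of this class were all fitted higher. Nop58, a scaffold of the particle, had 104, 95.1 and 106 CPM in the libraries labelled Il3ra-/- and 74.1, 67.3 and 84.9 CPM in the Il3ra+/+ libraries. The groups were separate, with a fold of 1.35 (95% interval 1.15 to 1.58; edgeR, adjusted p = 0.151; DESeq2, adjusted p = 0.0202). Nop56, the other scaffold, had 199, 163 and 172 CPM in the labelled Il3ra-/- group, against 182, 169 and 171 CPM in the Il3ra+/+ group. It overlapped fully, with a fold of 1.03 (95% interval 0.881 to 1.20; edgeR, adjusted p = 0.897), and its log2 fold turned to -0.048 without labelled Il3ra-/- replicate 1. Nop56 has 3 processed pseudogenes that are near-identical to it over stretches of 209 to 326 bases. Their counts equal 8.95% to 19.8% of its own. Fbl, the methyltransferase fibrillarin, did not overlap (fold 1.16; edgeR, adjusted p = 0.390), and Rrp9, which binds the U3 snoRNA, did (fold 1.09). In the Xist-high pair the fold was 1.01 for Fbl and 0.863 for Rrp9, and in the other 4 libraries it was 1.24 and 1.246. The median log2 fold of these 4 members was 0.17 in all libraries and 0.32 without the pair.

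Box H/ACA snoRNPs turn uridines of the ribosomal RNA into pseudouridines, and their 4 proteins were all fitted higher. Dkc1 (dyskerin), the catalytic subunit, had 71.6, 68.6 and 69.9 CPM in the libraries labelled Il3ra-/- and 54.0, 50.9 and 64.8 CPM in the Il3ra+/+ libraries. The groups did not overlap (fold 1.24; 95% interval 1.05 to 1.45; edgeR, adjusted p = 0.234). Dkc1 lies on the X chromosome, and its fold was 1.33 in the Xist-high pair and 1.20 without it. Gar1 did not overlap either, at 23.8 ± 0.249 CPM in the labelled Il3ra-/- group and 21.4 ± 1.75 CPM in the Il3ra+/+ group (SD, n = 3 each; fold 1.11). Nhp2 and Nop10 overlapped, with folds of 1.19 and 1.06. Both were lower in the labelled Il3ra-/- library of the Xist-high pair, with folds of 0.994 and 0.849, and higher in the other 4 libraries, with folds of 1.32 and 1.20.

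Several members also carry snoRNA genes in their introns. By the annotation, 7 members hold 21 snoRNA genes on their own strand: Nop56 with 5, Nop58 with 4, Ncl, Gnl3 and Wdr43 with 3 each, Ppan with 2 and Dkc1 with 1. Of these hosts, 6 were fitted higher and Ppan lower, with a median log2 fold of 0.24, beside 0.13 in the other 34 members. The libraries were made from polyadenylated RNA, and the snoRNAs themselves were not analysed here.

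The 8 small subunit factors, parts of the particle that cuts the 18S end of the precursor, were all fitted higher, with a median log2 fold of 0.16. Wdr43 had 75.7, 73.5 and 71.9 CPM in the libraries labelled Il3ra-/- and 60.3, 59.1 and 69.1 CPM in the Il3ra+/+ libraries, and Utp18 had 36.9, 36.0 and 41.4 CPM in the libraries labelled Il3ra-/- and 33.6, 29.7 and 33.4 CPM in the Il3ra+/+ libraries. Both were separate between the groups, with folds of 1.17 and 1.18 (edgeR, adjusted p = 0.295 and 0.309). Wdr75 and Utp20 were separate too, by smaller folds of 1.10 and 1.14. Rrp12 had the largest fold of the group at 1.22, but its libraries overlapped (17.6 ± 1.57 CPM in the labelled Il3ra-/- group and 14.5 ± 2.41 CPM in the Il3ra+/+ group; edgeR, adjusted p = 0.387). Heatr1, Utp15 and Nop14 lay close to equality, with folds of 1.04, 1.04 and 1.02. The log2 fold of Heatr1 turned to -0.014 without labelled Il3ra-/- replicate 1, and that of Nop14 to -0.011 without Il3ra+/+ replicate 1.

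Myc and Max bind the palindrome CACGTG, and the promoters of 4 members that hold it are shown because these members have the smallest p among those that do. The windows run from 60 bases before to 50 bases after the annotated start, 5′ to 3′ on the gene's strand, from RefSeq on GRCm38.p6, with CACGTG in capitals. They lie at chr17:71616155-71616264 (plus strand) for Wdr43, chr11:93885717-93885826 (minus strand) for Utp18, chr11:72441267-72441376 (plus strand) for Mybbp1a and chr10:88826765-88826874 (minus strand) for Utp20.
Wdr43: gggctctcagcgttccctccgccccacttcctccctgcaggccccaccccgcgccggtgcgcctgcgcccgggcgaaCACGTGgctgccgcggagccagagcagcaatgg
Utp18: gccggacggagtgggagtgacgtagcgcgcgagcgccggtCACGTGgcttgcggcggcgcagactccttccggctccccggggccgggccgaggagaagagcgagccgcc
Mybbp1a: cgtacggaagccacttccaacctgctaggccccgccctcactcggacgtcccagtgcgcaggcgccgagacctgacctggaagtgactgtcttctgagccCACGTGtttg
Utp20: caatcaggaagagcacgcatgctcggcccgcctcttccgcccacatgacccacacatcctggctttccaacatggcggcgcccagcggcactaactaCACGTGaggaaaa

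The motif begins 20 bases before the start in Utp18, and 18, 41 and 38 bases into the transcript in Wdr43, Mybbp1a and Utp20. Of the 34 members with a promoter window of 300 bases, 7 (20.6%) held CACGTG, which reads the same on both strands, beside 8.09% of 27025 genes with a window. The related CACGCG, searched on both strands and added without having been planned, was found in 13 of the 34 (38.2%), beside 10.5% of all genes. The members' windows were richer in G and C, at a median of 57.3% against 52.7% over all windows. The genes with a window were not matched to the members for expression in these libraries. The part of base composition or expression in these shares was not tested. Members with CACGTG had a median log2 fold of 0.19, and 6 of 7 were fitted higher. The 27 without it had a median of 0.13, and 23 were fitted higher. The 7 members that have no window, among them Myc and Rrs1, are in neither group. A match in these letters does not show binding.

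The large subunit factors were the least even group. Rrs1, which helps to place the 5S ribosomal RNA, had 25.3, 28.0 and 30.2 CPM in the libraries labelled Il3ra-/- and 21.9, 18 and 20.0 CPM in the Il3ra+/+ libraries. The groups did not overlap, with a fold of 1.39 (95% interval 1.17 to 1.66; edgeR, adjusted p = 0.151; DESeq2, adjusted p = 0.0155). Its fold was 1.15 in the Xist-high pair and 1.53 without that pair, where it passed edgeR's test (adjusted p = 0.0345). Rrp1b, Ddx21 and Ddx18 were separate as well, with folds of 1.14, 1.12 and 1.06; Ddx21 and Ddx18 are RNA helicases. A processed pseudogene of Ddx18, 99.3% identical over 1984 bases, had counts equal to 35.6% of those of Ddx18, so the counts of Ddx18 are uncertain.

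Pes1, Bop1 and Wdr12, whose proteins form a single complex in large subunit assembly, did not share a direction. Their folds were 1.05, 0.922 and 0.858 (edgeR, adjusted p = 0.835, 0.613 and 0.453). The fold of Pes1 was 0.804 in the Xist-high pair and 1.19 in the other 4 libraries, and that of Bop1 was 0.802 in the pair and 0.990 in the others. Wdr12 had 98.4, 89.5 and 75.5 CPM in the libraries labelled Il3ra-/-, against 86.4, 115 and 106 CPM in the Il3ra+/+ libraries. It was higher in the labelled Il3ra-/- library of the Xist-high pair (fold 1.14) and lower in the others (fold 0.748; edgeR, adjusted p = 0.0562). Wdr12 lies 350740 bases from Nop58 on chromosome 1, and the fitted folds of these neighbours point in opposite directions. The rRNA methyltransferase Nop2 had a fold of 1.09, Nop16 had 1.16, Noc2l 1.05 and Ppan 0.970, all overlapping between the groups.

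Other ribosome biogenesis factors leaned the same way by less. Of 78 such genes, 55 were fitted higher, with a median log2 fold of 0.06, and 0 passed edgeR's test over all genes or DESeq2's. At an unadjusted p under 0.05, 8 (10.3%) were higher, near the 8.01% of all genes, and 0 were lower, against 6.60% of all genes. The labelled Il3ra-/- libraries all lay above the Il3ra+/+ libraries in 16 (20.5%) and all below in 4 (5.13%), against 10.9% and 9.38% of all genes. Lyar, a nucleolar protein of growing cells, averaged 52.0 ± 1.75 CPM in the labelled Il3ra-/- group and 40.8 ± 4.44 CPM in the Il3ra+/+ group (SD, n = 3 each; fold 1.28; edgeR, adjusted p = 0.183). Rpf2, a partner of Rrs1 in 5S assembly, and Ltv1, an assembly factor of the small subunit, had folds of 1.27 and 1.22 (edgeR, adjusted p = 0.219 and 0.242).

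Known Myc targets outside the nucleolus were also mostly fitted higher. Of 19 genes, 16 were fitted higher, with a median log2 fold of 0.18. By edgeR's test over all genes 0 passed, and DESeq2 called 1 higher, beside 2.95% of all genes. At an unadjusted p under 0.05, 8 were higher and 0 lower, against 8.01% and 6.60% of all genes. This list depended on the Xist-high pair. Without it the median log2 fold was 0.34 and edgeR called 2 genes higher, beside 2.06% of all genes. Within the pair 13 of 19 genes were higher in the labelled Il3ra-/- library. Tfrc, the transferrin receptor, had 88.6, 90.5 and 93.9 CPM in the libraries labelled Il3ra-/- and 71.3, 62.9 and 75.2 CPM in the Il3ra+/+ libraries, with no overlap. Its fold was 1.30 (edgeR, adjusted p = 0.151; DESeq2, adjusted p = 0.0304). Cad, which starts pyrimidine synthesis, and the DNA repair gene Apex1 had folds of 1.30 and 1.37 (edgeR, adjusted p = 0.210 and 0.230). Cad was called higher without the Xist-high pair (fold 1.44; edgeR, adjusted p = 0.0365) and without the low-count filter (edgeR, adjusted p = 0.0312), and its fold in the pair was 1.10.

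Levels of different members were compared per length, as TPM (CPM corrected for length) on the longest annotated transcript. In the labelled Il3ra-/- group, 5 members averaged at least 100 TPM: Npm1 at 528 ± 43.2, Ncl at 150 ± 18, Nop56 at 144 ± 26.2, Fbl at 119 ± 5.61 and Tcof1 at 105 ± 10.8 TPM (SD, n = 3). In the Il3ra+/+ group these levels were 449 ± 46.6, 126 ± 10.1, 145 ± 9.57, 107 ± 4.66 and 115 ± 15.3 TPM. Ncl and Nop56 differed by less than their SDs in the labelled Il3ra-/- group. A further 29 members lay between 10 and 100 TPM and 7 below 10 TPM, with Mycn lowest at 2.46 ± 0.496 TPM in the labelled Il3ra-/- group and 1.71 ± 0.163 TPM in the Il3ra+/+ group. Per length Myc exceeded Mycn in both groups, at 55.2 ± 4.02 TPM in the labelled Il3ra-/- group and 41.3 ± 2.93 TPM in the Il3ra+/+ group. These levels depend on the transcript model: per coding length Ncl had 478 TPM in the labelled Il3ra-/- group and 395 TPM in the Il3ra+/+ group.

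Whether the set follows Myc can be described within the genotypes only, because Myc separates them. In both genotypes Myc was lowest in replicate 2 and highest in replicate 3. Averaged over the 38 members outside the Myc network, log2 CPM relative to the mean of the 6 libraries was 0.09, 0.04 and 0.08 in labelled Il3ra-/- replicates 1 to 3, and -0.03, -0.15 and -0.03 in Il3ra+/+ replicates 1 to 3. Replicate 2 was thus lowest for both Myc and the set in each genotype, while the other 2 libraries of each were close to each other. Of the 40 members other than Myc, 19 (47.5%) were lowest in replicate 2 among the labelled Il3ra-/- libraries, 23 (57.5%) among the Il3ra+/+ libraries and 14 (35.0%) in both, beside 25.6%, 31.4% and 10.1% of all other tested genes. At the other end, 14 members (35.0%) were highest in replicate 3 among the labelled Il3ra-/- libraries, against 36.7% of all genes, and 17 (42.5%) among the Il3ra+/+ libraries, against 29.5%. The complete order of Myc recurred in 7 members (17.5%) in the labelled Il3ra-/- group and 10 (25.0%) in the Il3ra+/+ group, beside 11.7% and 12.3% of all genes. It recurred in both groups in 3 members (7.5%), Npm1, Nop58 and Noc2l, beside 2.12% of all genes. Log2 CPM, as deviations from the genotype means, was also correlated with that of Myc. The median correlation was 0.32 over the 40 members, beside -0.0039 over all other tested genes. By role the median ran from -0.11 for RNA polymerase I to 0.66 for the abundant nucleolar proteins, and Wdr12 was lowest at -0.55. The 78 other ribosome biogenesis factors had a median of 0.21, and 1 of them (1.28%) had the order of Myc in both groups. A positive median was not particular to the members. In the cell division markers it was 0.85, with 30.0% in the order of Myc in both groups. For Myc targets outside the nucleolus it was 0.63. Among further marker lists it was 0.42 for thymic epithelium, 0.36 for double-negative thymocytes and 0.35 for B cells. For macrophages it was 0.29 and for dendritic cells 0.09. It was -0.25 in the thymocyte markers, 0.06 in the other polymerase I genes and -0.35 in the other Myc network genes. The libraries share depth and cell content across genes, so these shares and correlations are descriptions and carry no p.

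Cell division markers differed between the same libraries and by more. All 20 markers, among them Mki67, Top2a, Pcna and the Mcm helicase subunits, were fitted higher, with a median log2 fold of 0.50. By edgeR's test over all genes 0 passed. At an unadjusted p under 0.05, 20 were higher, beside 8.01% of all genes, and DESeq2 called 16 higher, beside 2.95%. Without the Xist-high library of both genotypes, edgeR called 5 higher, beside 2.06% of all genes. They summed to 5783, 4411 and 5596 CPM in labelled Il3ra-/- replicates 1 to 3 and to 3786, 3295 and 4144 CPM in Il3ra+/+ replicates 1 to 3, and no marker was at 0. Replicate 2 was again lowest in each genotype, for 18 of the 20 markers in both. Their part in the levels of Myc and the ribosome biogenesis genes was not tested.

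**Figure D4:**
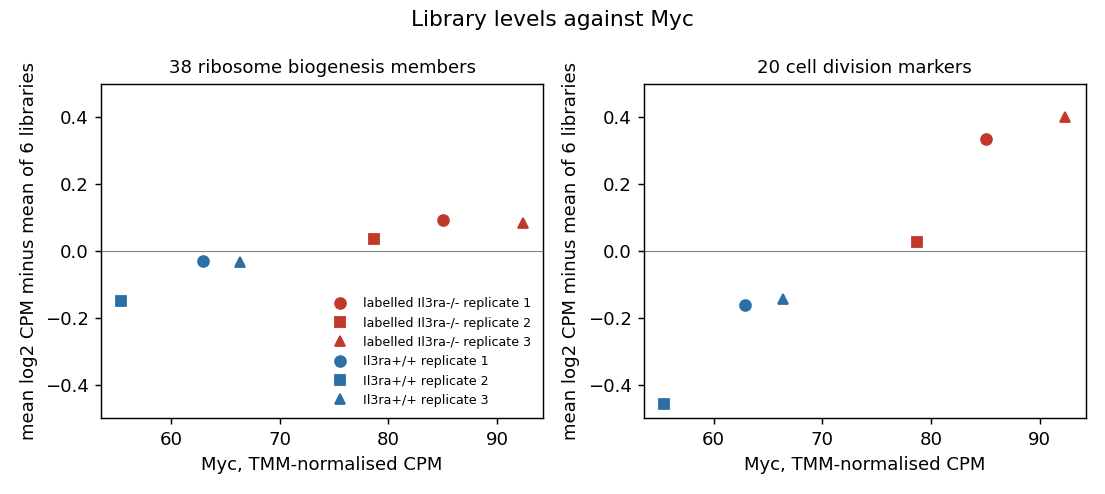
Each point is 1 library, placed by Myc in CPM on the horizontal axis and, on the vertical axis, by the mean log2 CPM of 38 ribosome biogenesis members (left) or 20 cell division markers (right) minus the mean of the 6 libraries. Replicate 2 is lowest in each genotype in both panels, and the vertical range of the markers, -0.46 to 0.40, exceeds that of the members, -0.15 to 0.09.

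Markers of other cells were at low levels, and labelled Il3ra-/- replicate 1 had the lowest sum of its group in each list of them given here. The 7 B cell markers, led by Cd79b, summed to 29.1 to 60.7 CPM in the labelled Il3ra-/- group and 42.5 to 50.7 CPM in the Il3ra+/+ group. The 6 dendritic cell markers, led by Itgax, summed to 12.4 to 47.7 CPM in the labelled Il3ra-/- group and 18.6 to 20.4 CPM in the Il3ra+/+ group. The 8 macrophage markers, led by Lyz2, summed to 68.0 to 222 CPM in the labelled Il3ra-/- group and 86.6 to 119 CPM in the Il3ra+/+ group. These sums overlapped between the genotypes, as did those of the 5 thymic epithelial markers, led by Epcam, which had 8.06 to 10.7 CPM in the labelled Il3ra-/- group and 5.94 to 9.14 CPM in the Il3ra+/+ group. The double-negative markers, led by Il2ra, overlapped as well. In replicates 2 and 3 alone, each of these lists summed higher in both labelled Il3ra-/- libraries than in both Il3ra+/+ libraries. For macrophages these sums were 111 and 222 CPM, against 88.8 and 86.6 CPM. Without the Xist-high libraries, edgeR called 3 macrophage, 2 double-negative, 1 dendritic, 1 thymic epithelial and 0 B cell markers higher. Over all genes it called 2.06% higher. Gata2 and Foxn1 were at 0 in at least 1 library. The part of these cells in the members' levels was not tested.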

How the data were processed

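Poly(A) libraries (TruSeq Stranded mRNA) were made from thymocyte RNA, per the labels' protocols. The submitters' processing notes name STAR 2.5.4b, featureCounts and GRCm38. Neither the strand setting nor the handling of multi-mapping reads is given there. The deposited values are raw counts per Ensembl gene, 1 column per library. All 55536 identifiers matched GENCODE M21. Exons of 15 members overlap a gene on the other strand, whose reads cannot be told apart while the strand setting is unknown.

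The members and lists were chosen with earlier results of these data known. Groups came from sample titles. Genes were filtered with filterByExpr, scaled by TMM and tested with edgeR 4.0.16 (glmQLFit with robust = TRUE, glmQLFTest, R 4.3.3) without covariates, at a Benjamini-Hochberg adjusted p of 0.05 over 18690 genes. The SE of a log2 fold is derived from its F statistic. The fit was tested on simulated counts, with planted changes larger than the fitted fold of every member but Mycn. The simulation therefore does not show how the fit performs on changes of the members' size. Alternatives used DESeq2 1.42.0, limma 3.58.1 (voom), other scalings and filters, a replicate block and the omission of libraries. Named genes were Myc, Mycn and Max and, in each role group, the 3 of smallest p and the 1 of fold closest to equality, and 3 of smallest p in each further list, and the most abundant marker of each marker list; remaining members were named to account for all 41. Near copies were found with BLAST 2.17.0. A library total of 55747682 to 82684219 counts sets the precision, and the p-values measure the spread between single mice. With no covariate in the fit, that spread includes the difference of the Xist-high replicate 1 from the other libraries of its genotype. The erythroid marker list is not reported here.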

Additional observations from a re-analysis of the deposited data

How the results depend on the processing

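Over 14 alternatives the number of members fitted higher, 34 of 41, lay between 31 and 34, and their median log2 fold between 0.11 (without Il3ra+/+ replicate 2) and 0.20 (without Il3ra+/+ replicate 1). Bop1, Max, Polr1e, Ppan, Tcof1, Ubtf and Wdr12 were fitted lower in every one of these fits. The count of members called, 0 by edgeR, was 3 by DESeq2, 3 without the low-count filter (Myc, Nop58 and Rrs1 in both) and 2 without the Xist-high library of both genotypes, and 0 in the others. Over the whole table the 17 calls became 594 by DESeq2, 840 without the low-count filter, 762 without the Xist-high libraries, and 8 to 29 with 1 library left out. The replicate block gave 9 calls and 0 members; same-numbered libraries did not deviate together (correlations of deviations -0.11, 0.03 and -0.12), so the numbers were not taken as pairs. Close to equality, the log2 folds of 6 members changed sign. That of Nop14 lay between -0.011 (without Il3ra+/+ replicate 1) and 0.070 with 1 library left out and was -0.029 without the Xist-high libraries; that of Nop56 lay between -0.048 (without labelled Il3ra-/- replicate 1) and 0.103 and was -0.017 without the Xist-high libraries. That of Polr1c was -0.021 without Il3ra+/+ replicate 2 and -0.029 without Il3ra+/+ replicate 3, and at most 0.202 with 1 library left out. With 1 library left out, Heatr1 lay between -0.014 and 0.138 and Polr1a between -0.0052 and 0.113, both lowest without labelled Il3ra-/- replicate 1, and Pes1 between -0.00098 (without labelled Il3ra-/- replicate 3) and 0.164. The cause was not tested. With 3 mice a group, the 95% interval of the fold includes 1 in 29 of the 41 members.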
